A study of Homo sapiens with 16 samples.

Results

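The genes described here are 41 interferon-stimulated genes, taken by name from a list of interferon response genes, out of 19970 protein-coding genes in the annotation used. They were followed in H69, human bile duct epithelial cells (cholangiocytes) made into a permanent line with a viral oncogene. The treated cells received recombinant human TGF-beta at 10 ng/ml for 16 h, and the other cells received vehicle. Both were assayed by ChIP-seq, sequencing of immunoprecipitated chromatin, for SMAD3, the transcription factor that carries the TGF-beta signal, and for H3K27ac and H3K9ac, acetylation marks of active promoters and, for H3K27ac, active enhancers. Each of the 3 targets had 2 TGF-beta and 2 vehicle libraries, numbered 4 and 5 for SMAD3 and 1 and 2 for the marks. The labels name no interferon in either group. Being 1 immortalised line, H69 stands for cholangiocytes only as far as it has kept their chromatin.

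Interferons are secreted by cells that sense viral nucleic acids. Type I and III interferons signal through JAK kinases to a complex that includes STAT2 and IRF9 and binds the interferon-stimulated response element (ISRE) in promoters, while interferon gamma acts through the gamma-activated site (GAS). The genes that respond encode proteins that sense viral RNA, block virus entry, translation or release, attach the ubiquitin-like protein ISG15 to other proteins, and present antigen.

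The measure was peak length, the number of bases inside the authors' peaks within a gene and 10 kb on each side of it, in kb. Read depth is unknown, since reads per peak are not listed, and peak length does not tell wider peaks from additional ones. Changes are TGF-beta minus vehicle differences of log2(peak length + 500 bp) after centring each library on its median, tested with limma across all genes averaging at least 500 bp and called at a Benjamini-Hochberg adjusted p below 0.05. Before centring, the median gene was 0.32 higher after TGF-beta in SMAD3, 0.088 higher in H3K27ac and 0.092 lower in H3K9ac on the log2 scale, and all changes are relative to those shifts. With 2 libraries against 2, an exact permutation test of 1 gene cannot go below p = 0.333, so every test borrows the spread of other genes. Nothing in the labels ties replicates to separate cultures, so p-values measure only the spread between these libraries.

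Peaks numbered 33700 and 34413 with TGF-beta, against 22451 and 25268 with vehicle in SMAD3. In H3K27ac there were 90092 and 92714 with TGF-beta, against 82259 and 83429 with vehicle, and in H3K9ac 54682 and 56825 with TGF-beta, against 55069 and 61297 with vehicle. The TGF-beta targets TGFBI and SMAD7 rose in SMAD3, by 4.50 and 1.60 on the log2 scale. KRT7, a duct keratin, had 21.96 to 22.4 kb of H3K27ac with TGF-beta and 22.03 to 23.4 kb with vehicle, whereas CFTR, also a cholangiocyte marker, was listed at 0 in both groups. Of 6 hepatocyte markers, ALB and TTR were listed at 0 in both groups, SERPINA1 had 7.84 to 8.05 kb of H3K27ac with TGF-beta and 6.602 to 7.47 kb with vehicle, and of 3 tested CYP3A4 rose (1.36) and FGB fell (-0.49). Leukocyte markers, whose cells are rich in interferon-stimulated gene products, summed to 7.74 to 7.82 kb of H3K27ac with TGF-beta and 9.70 to 10.95 kb with vehicle over 6 genes, with 1 of the 4 genes tested, PTPRC, lower and CLEC4C listed at 0. The part of these markers in the results was not tested. TGF-beta replicate 2 of both marks was sequenced on lane 8, per the file headers, and the other libraries of the marks on lane 7.

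Nearly all of the interferon-stimulated genes carried peaks whatever the treatment. A peak of H3K27ac was present in all 4 libraries at 40 of 41 genes (97.6%), against 71.6% of all protein-coding genes. H3K9ac was present in all 4 libraries at 40 of 41 (97.6%, against 75.0% of all genes) and SMAD3 at 37 of 41 (90.2%, against 66.5%). None of the 41 genes lacked a given target in all 4 libraries. The exceptions were RSAD2, without H3K27ac in either vehicle library, BST2, with H3K9ac in 1 library only, and BST2, RSAD2, XAF1 and HERC5 in SMAD3.

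Levels varied widely between the genes when expressed per length of the gene and its flanks. H3K27ac covered 38.1% of the IRF7 window, 35.6% of the ISG15 window and 29.6% of the IFITM1 window after TGF-beta. With vehicle the same windows were covered at 21.98%, 43.6% and 32.6%. Among the least covered, RSAD2 had 0.807% after TGF-beta and 0% with vehicle. HERC5, which encodes a ligase that attaches ISG15, had 0.426% after TGF-beta and 0.444% with vehicle. SMAD3 covered most at IFI35, with 27.7% after TGF-beta and 11.7% with vehicle, and at IRF1, with 20.4% after TGF-beta and 16.5% with vehicle. The 41 windows overlap in part and form 30 separate loci, and 7 of the genes have no other protein-coding gene in the window.

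**Figure D1:**
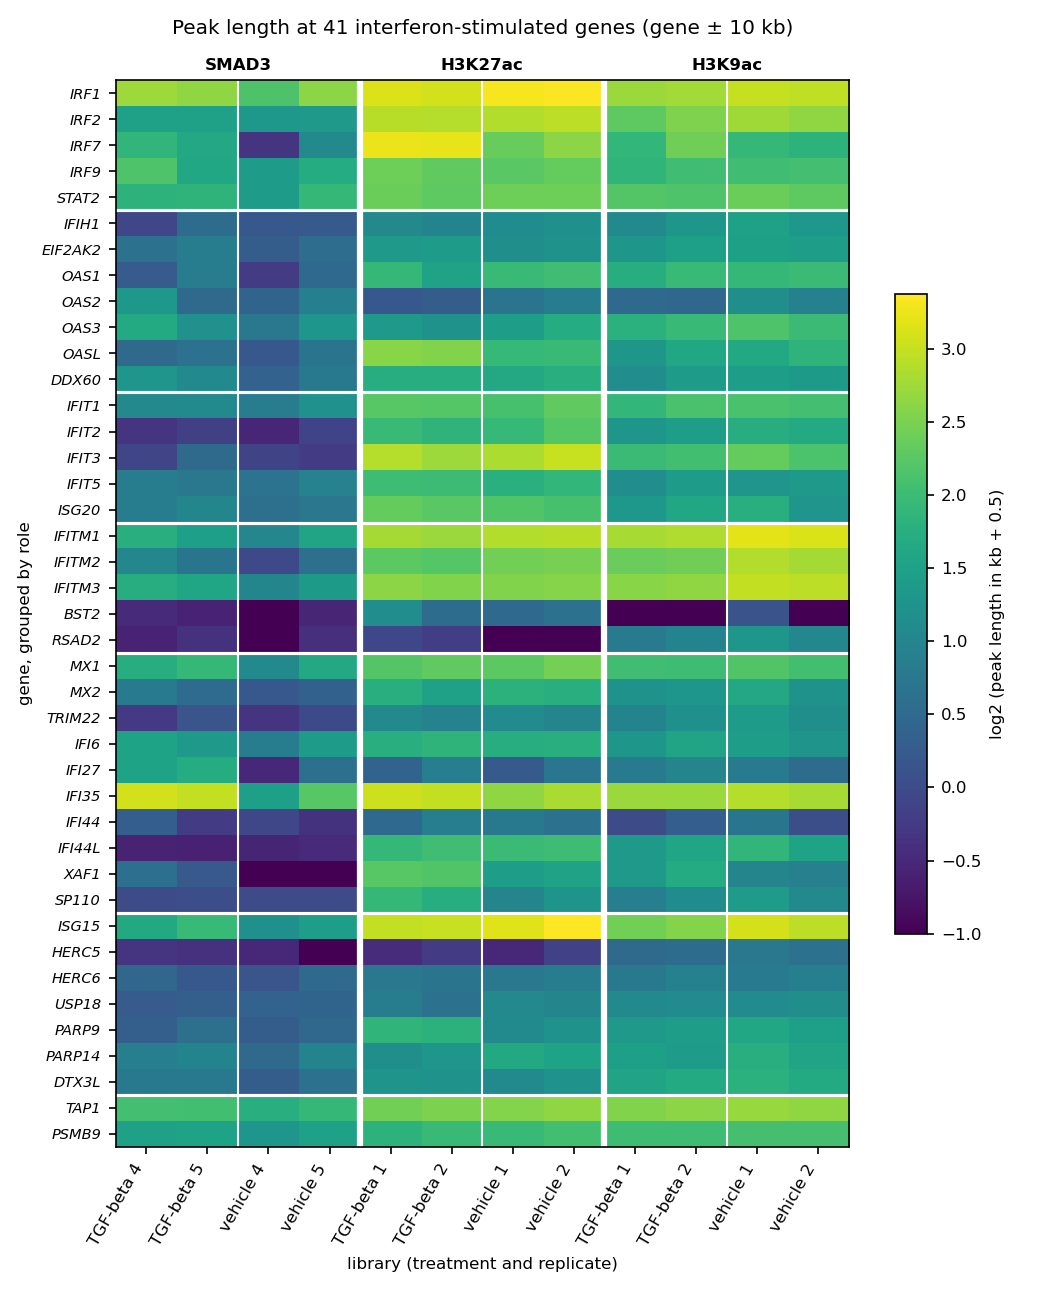
Peak length of the 41 interferon-stimulated genes in each of the 12 libraries, as log2(kb + 0.5), with genes in rows grouped by role from transcription factors at the top to antigen processing at the bottom. IRF1, ISG15 and the IFITM genes are bright in both marks and both treatments, IRF7 is brighter in the TGF-beta columns of H3K27ac, and XAF1 is dark in the vehicle columns of SMAD3.

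The promoters bear on these genes because most of them carried peaks in every library. RefSeq promoters (GRCh38.p14, 250 bases before to 50 bases after the start site) were found for 32 of the 41 genes. Of these, 23 overlapped a peak in all 12 libraries, 8 in some libraries and SP110 in none. The number with an H3K27ac peak was 29 and 30 of 32 with TGF-beta and 28 and 28 with vehicle, against 58.2% to 59.2% of all promoters. H3K9ac peaks lay at 27 and 28 with TGF-beta and at 29 and 28 with vehicle, against 62.9% to 64.9% of all promoters. SMAD3 peaks lay at 25 and 29 with TGF-beta and at 25 and 26 with vehicle, against 56.3% to 60.2% of all promoters.

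The promoters were searched for 3 motifs on both strands. The ISRE core, GAAANNGAA, occurred in 22 of the 32 promoters (68.8%), against 1117 of 15811 promoters of all genes (7.06%). The GAS, TTCNNNGAA, which reads the same on both strands, occurred in 9 (28.1%, against 6.98%), and both together in 5 (15.6%, against 0.784%), with the letters of the 2 motifs overlapping in IFITM1, BST2 and IFI27. The SMAD box CAGAC occurred in 15 (46.9%), close to its share of 44.1% in all promoters, and overlapped neither of the others. The 44 ISRE matches began between 164 bases before and 17 bases after the start site, and 16 promoters held more than 1. A match describes letters only and is not evidence of a bound site.

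Promoters with an ISRE match and a peak are printed for the 8 genes with the longest H3K27ac peak length, with ISRE matches in capitals, 5′ to 3′ on the gene's own strand (RefSeq, GRCh38.p14). They are ISG15 (chr1:1013247-1013546, plus strand), IFIT3 (chr10:89327747-89328046, plus strand), IFITM1 (chr11:313790-314089, plus strand), IFITM3 (chr11:320811-321110, minus strand), TAP1 (chr6:32853655-32853954, minus strand), MX1 (chr21:41420308-41420607, plus strand), ISG20 (chr15:88638766-88639065, plus strand) and IFIT1 (chr10:89392373-89392672, plus strand).
ISG15: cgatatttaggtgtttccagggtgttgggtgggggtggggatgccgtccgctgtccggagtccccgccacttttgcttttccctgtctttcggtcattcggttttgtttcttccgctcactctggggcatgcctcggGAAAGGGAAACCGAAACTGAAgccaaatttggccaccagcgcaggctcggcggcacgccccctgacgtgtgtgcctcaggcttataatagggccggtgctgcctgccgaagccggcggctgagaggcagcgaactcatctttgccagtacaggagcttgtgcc
IFIT3: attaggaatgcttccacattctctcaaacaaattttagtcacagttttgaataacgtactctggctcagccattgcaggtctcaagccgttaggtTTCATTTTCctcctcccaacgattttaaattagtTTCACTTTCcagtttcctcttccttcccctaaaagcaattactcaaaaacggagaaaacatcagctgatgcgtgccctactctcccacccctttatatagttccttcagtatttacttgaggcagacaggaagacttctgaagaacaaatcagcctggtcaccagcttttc
IFITM1: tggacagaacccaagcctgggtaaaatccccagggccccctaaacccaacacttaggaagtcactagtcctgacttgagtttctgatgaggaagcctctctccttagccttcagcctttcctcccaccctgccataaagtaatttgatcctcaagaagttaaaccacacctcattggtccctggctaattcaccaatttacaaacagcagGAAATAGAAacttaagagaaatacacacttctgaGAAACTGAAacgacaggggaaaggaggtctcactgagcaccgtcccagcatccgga
IFITM3: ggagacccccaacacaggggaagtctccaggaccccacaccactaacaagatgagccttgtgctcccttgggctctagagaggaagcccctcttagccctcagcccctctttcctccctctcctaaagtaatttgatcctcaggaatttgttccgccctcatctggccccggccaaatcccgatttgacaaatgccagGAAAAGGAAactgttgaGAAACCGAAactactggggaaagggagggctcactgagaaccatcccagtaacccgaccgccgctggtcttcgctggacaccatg
TAP1: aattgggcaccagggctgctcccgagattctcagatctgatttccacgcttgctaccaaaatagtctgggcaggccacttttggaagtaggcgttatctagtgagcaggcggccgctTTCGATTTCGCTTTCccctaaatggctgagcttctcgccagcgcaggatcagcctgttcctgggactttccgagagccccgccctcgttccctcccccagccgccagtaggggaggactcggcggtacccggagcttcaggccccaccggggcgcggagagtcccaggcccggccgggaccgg
MX1: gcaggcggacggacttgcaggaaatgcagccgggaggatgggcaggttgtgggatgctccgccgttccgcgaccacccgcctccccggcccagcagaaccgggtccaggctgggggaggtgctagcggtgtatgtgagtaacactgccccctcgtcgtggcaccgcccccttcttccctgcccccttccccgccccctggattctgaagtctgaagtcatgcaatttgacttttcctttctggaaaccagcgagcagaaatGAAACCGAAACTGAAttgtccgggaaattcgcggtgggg
ISG20: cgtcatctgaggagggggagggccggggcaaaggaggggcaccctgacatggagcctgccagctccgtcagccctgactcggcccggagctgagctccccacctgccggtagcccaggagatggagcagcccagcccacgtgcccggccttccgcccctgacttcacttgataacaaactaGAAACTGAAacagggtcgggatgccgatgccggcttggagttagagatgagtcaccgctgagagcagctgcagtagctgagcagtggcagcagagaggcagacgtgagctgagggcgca
IFIT1: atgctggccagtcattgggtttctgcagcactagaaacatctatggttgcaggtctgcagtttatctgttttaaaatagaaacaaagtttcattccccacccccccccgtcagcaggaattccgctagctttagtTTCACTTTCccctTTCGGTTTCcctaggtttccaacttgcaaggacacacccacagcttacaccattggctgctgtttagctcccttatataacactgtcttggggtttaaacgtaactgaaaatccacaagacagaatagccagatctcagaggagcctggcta
The spacing and strand of the matches differ between these promoters. In ISG15 3 overlapping matches begin 113, 107 and 101 bases before the start site, in IFITM1 and IFITM3 the matches lie within 52 bases of it, and in MX1 they lie 11 and 17 bases after it. In IFIT1, IFIT3 and TAP1 every match is on the opposite strand. Of these 8 promoters, 7 had a peak in all 12 libraries, and IFITM1 had one in both libraries of each mark and treatment but in 1 TGF-beta and 0 vehicle libraries of SMAD3.

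RSAD2, which encodes viperin, an enzyme that makes a chain-terminating nucleotide against viral RNA synthesis, was added after its values were seen. It is the 1 gene of the 32 whose promoter had an H3K27ac peak in the 2 TGF-beta libraries but not with vehicle. Over the window of gene and flanks it was the 1 gene of the 41 with that pattern, beside 260 of all 19970 genes. Its promoter holds 1 ISRE match.
RSAD2: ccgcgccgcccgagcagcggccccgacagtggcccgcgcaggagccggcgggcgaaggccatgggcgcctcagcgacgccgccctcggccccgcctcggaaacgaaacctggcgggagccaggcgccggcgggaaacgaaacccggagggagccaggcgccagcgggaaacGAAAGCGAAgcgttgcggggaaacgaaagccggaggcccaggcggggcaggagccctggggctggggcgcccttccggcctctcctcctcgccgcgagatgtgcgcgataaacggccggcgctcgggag
The H3K27ac region over the RSAD2 start site (chr2:6865557-6866035) gave 0.471 and 0.374 kb with TGF-beta, against 0 and 0 kb with vehicle. The gene fell below the length filter and was not tested in H3K27ac. H3K9ac covered the start site in all 4 libraries. Its length was 1.26 and 1.475 kb with TGF-beta, against 1.99 and 1.57 kb with vehicle (log2 change -0.19 ± 0.0833 SE, adjusted p = 0.218 in limma). Both TGF-beta libraries lay below, as for 40.9% of all genes tested, and 1 H3K9ac region of the window was lost.

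Interferon-stimulated genes passed in both directions in H3K27ac and H3K9ac. The 2 that passed in SMAD3 were higher, as were 87.0% of SMAD3 calls over all genes. The share of interferon-stimulated genes that passed in either direction was not tested against that of all genes, which was 26.4% in H3K27ac, 9.47% in H3K9ac and 12.8% in SMAD3. In H3K27ac, 5 of 39 tested rose and 7 fell, beside 14.8% and 11.7% of all genes tested. In H3K9ac, 1 of 40 rose and 3 fell, beside 4.25% and 5.22%. In SMAD3, 2 of 33 rose and 0 fell, beside 11.1% and 1.67% (limma with Benjamini-Hochberg adjustment). At an unadjusted p below 0.05 there were 20, 11 and 6 genes. By separate locus, 5 rose and 6 fell in H3K27ac, 1 rose and 3 fell in H3K9ac, and 2 rose in SMAD3. Changes lay below 0 at 27 of 39 genes in H3K27ac (69.2%, beside 55.6% of all genes tested) and 27 of 40 in H3K9ac (67.5%, beside 49.2%). Neighbouring members share peaks, and these shares were not tested. The median change was -0.12 in H3K27ac (-0.028 in all genes), -0.072 in H3K9ac (0.0029) and -0.018 in SMAD3 (-0.029).

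The groups did not overlap before centring, with both TGF-beta libraries above, at 9 of 39 genes in H3K27ac, 1 of 40 in H3K9ac and 18 of 33 in SMAD3. The same held for 40.7%, 9.39% and 68.9% of all genes tested. Both TGF-beta libraries lay below at 15, 24 and 1 genes, beside 20.9%, 40.9% and 1.8% of all genes. The count of genes that fell in H3K27ac was 3 without TGF-beta replicate 1, 2 without TGF-beta replicate 2, which leaves lane 7 alone, 4 without vehicle replicate 1 and 5 without vehicle replicate 2, and the count that rose was 5 or 6. On lane 7 alone 1 gene rose and 1 fell in H3K9ac. Without centring 5 rose and 2 fell in H3K27ac, 0 rose and 2 fell in H3K9ac and 2 rose in SMAD3. Over all genes, 55.9% of called genes rose in H3K27ac (74.0% without centring), 44.9% in H3K9ac (32.6%) and 87.0% in SMAD3 (99.4%).

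**Figure D2:**
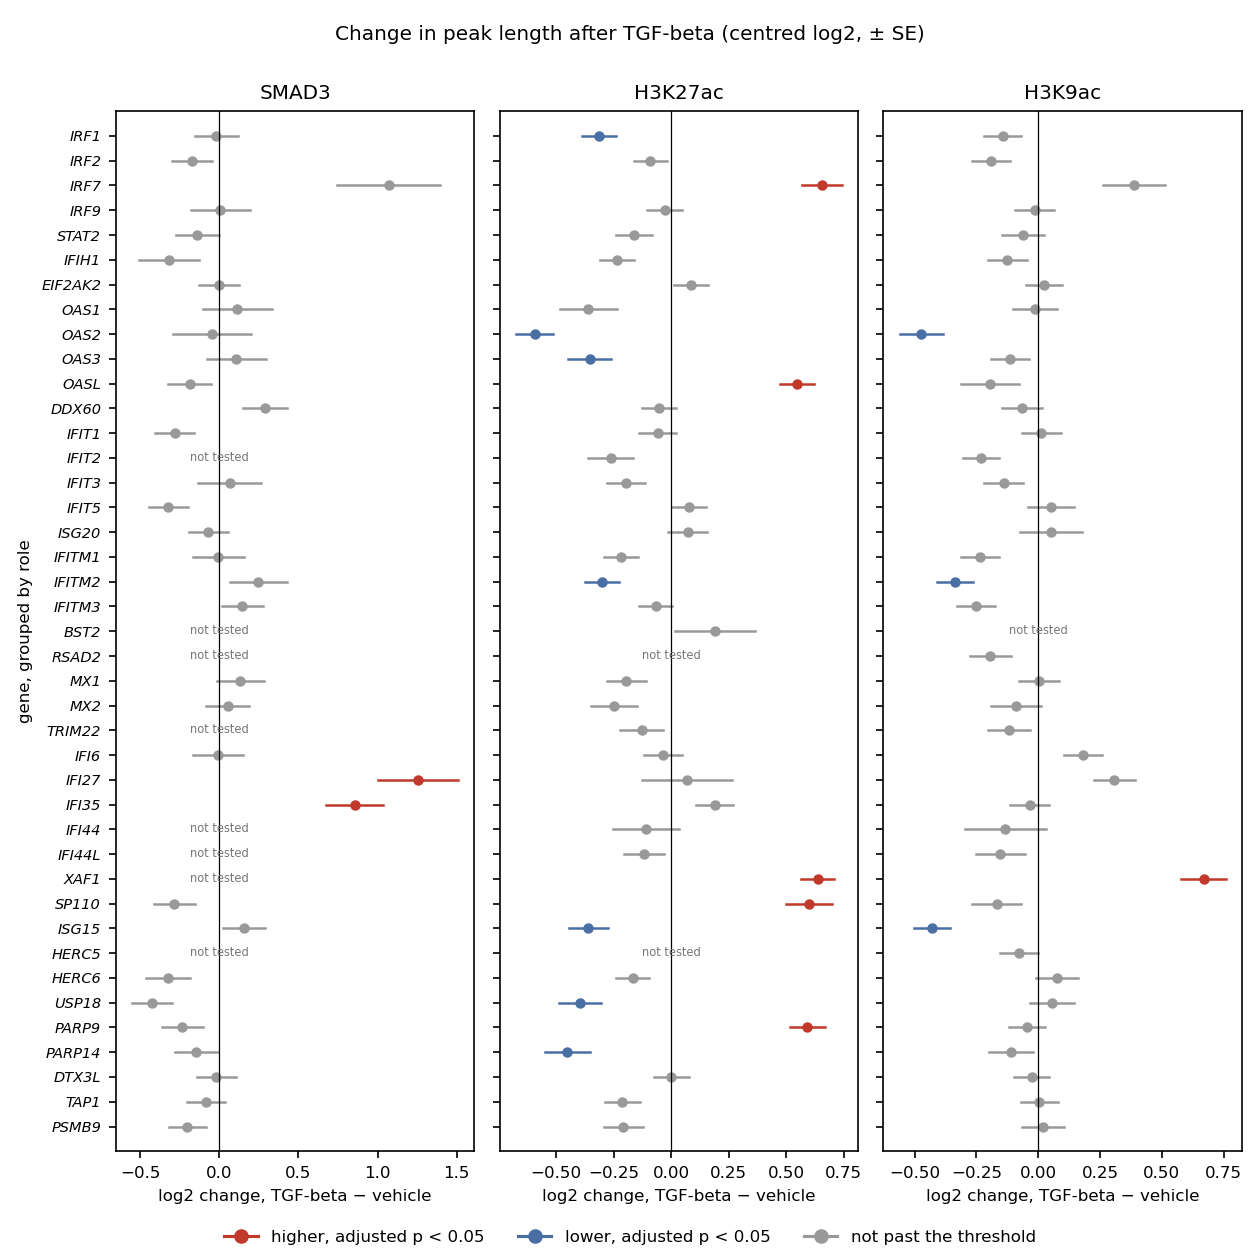
Log2 change in peak length, TGF-beta minus vehicle, with its standard error, for each interferon-stimulated gene in SMAD3, H3K27ac and H3K9ac. Red and blue points passed an adjusted p below 0.05 as higher and lower after TGF-beta. In H3K27ac 5 are red and 7 blue, in H3K9ac 1 and 3, and in SMAD3 2 and 0, and genes below the length filter are marked as not tested.

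Among the transcription factors of the response, IRF7 rose and IRF1 fell in H3K27ac, while IRF2, IRF9 and STAT2 did not pass in any target. IRF7, the factor that amplifies interferon production (chromosome 11, 612555 to 615950, GRCh38), had 8.97 and 8.84 kb of H3K27ac with TGF-beta, against 4.66 and 5.63 kb with vehicle (log2 change 0.66 ± 0.0870 SE, adjusted p = 0.00242). Both TGF-beta libraries lay above both vehicle libraries, as at 40.7% of all genes tested. In SMAD3 it had 3.21 and 2.62 kb with TGF-beta, against 0.289 and 1.64 kb with vehicle (log2 change 1.07 ± 0.326 SE, adjusted p = 0.0674). There too both TGF-beta libraries lay above, as at 68.9% of all genes tested. Its SMAD3 change passed with the replicate number as a block (adjusted p = 0.0304) and in 4 other settings, at 1.68 without vehicle replicate 5 (0.00316). H3K9ac at IRF7 gave 3.25 and 4.88 kb with TGF-beta, against 3.27 and 3.06 kb with vehicle (log2 change 0.39 ± 0.126 SE, adjusted p = 0.111), where the groups overlapped, and with the block the adjusted p was 0.0320. Without TGF-beta replicate 1 that change was 0.58 (adjusted p = 0.0115). The H3K27ac call was lost in a window of 2.5 kb (log2 change 0.21, adjusted p = 0.0892), and the window of 10 kb also holds CDHR5 and PHRF1.

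IRF1, a factor induced by interferon gamma that activates antigen presentation genes (chromosome 5, 132481609 to 132490773), had 8.403 and 7.92 kb of H3K27ac with TGF-beta, against 9.499 and 9.72 kb with vehicle (log2 change -0.31 ± 0.0739 SE, adjusted p = 0.0233). Both TGF-beta libraries were below both vehicle libraries, as at 20.9% of all genes tested. It had 6.07 and 6.34 kb of H3K9ac with TGF-beta, against 7.52 and 7.26 kb with vehicle (log2 change -0.14 ± 0.0758 SE, adjusted p = 0.314). The SMAD3 length was 6.16 and 5.77 kb with TGF-beta, against 3.98 and 5.61 kb with vehicle (log2 change -0.018 ± 0.134 SE, adjusted p = 0.942). No other protein-coding gene lies in the IRF1 window. The H3K27ac call was lost without TGF-beta replicate 1, TGF-beta replicate 2 or vehicle replicate 1 (adjusted p = 0.0755, 0.125 and 0.0714), in a window of 2.5 kb (0.104) and without centring (0.103).

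IRF2, an antagonist that competes with IRF1 for its sites, had 7.04 and 6.96 kb of H3K27ac with TGF-beta, against 6.82 and 7.22 kb with vehicle. H3K9ac there was 4.43 and 5.30 kb with TGF-beta, against 6.26 and 5.77 kb with vehicle, and in SMAD3 2.33 and 2.34 kb with TGF-beta, against 2.03 and 2.09 kb with vehicle. IRF9, the DNA-binding subunit of the complex with STAT2, had 4.83 and 4.46 kb of H3K27ac with TGF-beta, against 4.27 and 4.60 kb with vehicle. For H3K9ac the lengths were 3.14 and 3.58 kb with TGF-beta, against 3.62 and 3.68 kb with vehicle, and in SMAD3 4.01 and 2.56 kb with TGF-beta, against 2.19 and 2.76 kb with vehicle. STAT2, its partner, had 4.77 and 4.40 kb of H3K27ac with TGF-beta, against 4.85 and 4.84 kb with vehicle. In H3K9ac it had 4.14 and 3.998 kb with TGF-beta, against 4.77 and 4.39 kb with vehicle, and in SMAD3 3.06 and 3.11 kb with TGF-beta, against 2.15 and 3.26 kb with vehicle. Their log2 changes ranged from -0.19 to 0.0059, with adjusted p from 0.181 to 0.988 over the 3 targets. Before centring, H3K9ac of all 3 was lower in both TGF-beta libraries (40.9% of all genes tested), H3K27ac of STAT2 was lower in both (20.9%), and SMAD3 of IRF2 was higher in both (68.9%).

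Among the 7 sensors of viral RNA, 1 rose and 2 fell in H3K27ac, 1 fell in H3K9ac and none passed in SMAD3. OASL, an enzymatically inactive relative of the oligoadenylate synthetases that enhances RIG-I signalling (chromosome 12, 121017761 to 121039246), had 5.57 and 5.34 kb of H3K27ac with TGF-beta, against 3.31 and 3.36 kb with vehicle (log2 change 0.55 ± 0.0737 SE, adjusted p = 0.00253). Both TGF-beta libraries lay above, as at 40.7% of all genes tested, and the call held in every setting tried. H3K9ac at OASL gave 1.98 and 2.58 kb with TGF-beta, against 2.66 and 3.098 kb with vehicle (log2 change -0.20 ± 0.116 SE, adjusted p = 0.376). SMAD3 gave 0.925 and 1.07 kb with TGF-beta, against 0.652 and 1.11 kb with vehicle (log2 change -0.19 ± 0.137 SE, adjusted p = 0.373). No region there was gained or lost in H3K27ac: 7 regions were called in all 4 libraries, the longest of them 2167 bp within the gene.

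OAS2, which makes the 2′-5′ oligoadenylates that activate RNase L (chromosome 12, 112978519 to 113011723), fell in both marks. H3K27ac gave 0.658 and 0.728 kb with TGF-beta, against 1.11 and 1.28 kb with vehicle (log2 change -0.59 ± 0.0815 SE, adjusted p = 0.00278), and H3K9ac gave 0.905 and 0.892 kb with TGF-beta, against 1.75 and 1.40 kb with vehicle (log2 change -0.47 ± 0.0878 SE, adjusted p = 0.0176). In each mark both TGF-beta libraries were below both vehicle libraries, as at 20.9% (H3K27ac) and 40.9% (H3K9ac) of all genes tested. The H3K27ac call held in every setting tried, at -0.31 with a pseudocount of 2000 bp and -0.35 in a window of 50 kb. The H3K9ac call was lost without TGF-beta replicate 2 (adjusted p = 0.0531) and in a window of 50 kb (-0.11, 0.435). SMAD3 at OAS2 gave 2.02 and 0.936 kb with TGF-beta, against 0.835 and 1.35 kb with vehicle, which overlapped.

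The paralog OAS3 (chromosome 12, 112938474 to 112973251), which shares its flank with OAS1 and OAS2, had 2.08 and 1.87 kb of H3K27ac with TGF-beta, against 2.21 and 2.77 kb with vehicle (log2 change -0.35 ± 0.0931 SE, adjusted p = 0.0336). Of the 7 that fell, this call was lost in the most settings: without TGF-beta replicate 1 (adjusted p = 0.0683), TGF-beta replicate 2 (0.149) or vehicle replicate 2 (0.113), without centring (0.147), with no filter (0.0509), with a pseudocount of 100 bp (0.0522) and in a window of 2.5 kb (-0.076, 0.685). OAS1 had 3.27 and 2.37 kb of H3K27ac with TGF-beta, against 3.35 and 3.60 kb with vehicle (log2 change -0.36 ± 0.123 SE, adjusted p = 0.0754). Its change passed as lower in 6 other settings, at -0.54 without TGF-beta replicate 1 (adjusted p = 0.0130) and -0.49 in a window of 50 kb (0.0123). OAS1 makes the same oligoadenylates, and neither paralog passed in the other targets. H3K9ac at OAS3 was 2.97 and 3.37 kb with TGF-beta, against 4.04 and 3.44 kb with vehicle, and in SMAD3 2.71 and 1.83 kb with TGF-beta, against 1.18 and 1.96 kb with vehicle. H3K9ac at OAS1 was 2.82 and 3.37 kb with TGF-beta, against 3.27 and 3.45 kb with vehicle, and in SMAD3 0.698 and 1.32 kb with TGF-beta, against 0.349 and 0.906 kb with vehicle. The 3 genes lie side by side, so their windows share peaks.

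IFIH1, the double-stranded RNA sensor MDA5, EIF2AK2, the kinase PKR that halts translation, and DDX60, a helicase, did not pass. Their H3K27ac changes were -0.23, 0.086 and -0.052 on the log2 scale (adjusted p = 0.0605, 0.449 and 0.651), those in H3K9ac -0.13, 0.024 and -0.065, and those in SMAD3 -0.32, -0.0026 and 0.29. IFIH1 reversed with the window: in 50 kb its H3K27ac change was 0.89 (adjusted p = 0.000432) and its H3K9ac change 0.45 (0.0181). Without SMAD3 TGF-beta replicate 5 its SMAD3 change was -0.61 and passed (0.0185). A SMAD3 region gained by TGF-beta lay in IFIH1 0.541 kb into the gene (chr2:162317938-162318348).

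The IFIT genes and ISG20, whose products bind or degrade viral RNA, showed no call where they were tested. IFIT2 was too short to test in SMAD3. IFIT1, which holds back translation of RNA with a foreign cap, had 4.26 and 4.16 kb of H3K27ac with TGF-beta, against 3.79 and 4.47 kb with vehicle. H3K9ac peaks spanned 3.24 and 3.86 kb with TGF-beta, against 3.83 and 3.70 kb with vehicle, and in SMAD3 1.58 and 1.61 kb with TGF-beta, against 1.29 and 1.83 kb with vehicle. IFIT2, which binds AU-rich RNA, had 3.41 and 3.12 kb of H3K27ac with TGF-beta, against 3.34 and 4.20 kb with vehicle. The H3K9ac length was 2.005 and 2.21 kb with TGF-beta, against 2.83 and 2.69 kb with vehicle, and in SMAD3 0.300 and 0.387 kb with TGF-beta, against 0.192 and 0.416 kb with vehicle. IFIT3, which stabilises IFIT1, had 6.96 and 6.17 kb of H3K27ac with TGF-beta, against 6.70 and 7.54 kb with vehicle. Its H3K9ac length was 3.44 and 3.63 kb with TGF-beta, against 4.61 and 3.89 kb with vehicle, and in SMAD3 0.440 and 0.926 kb with TGF-beta, against 0.431 and 0.343 kb with vehicle. In H3K27ac the groups of all 3 overlapped, and IFIT2 passed as lower without vehicle replicate 1 (-0.37, adjusted p = 0.0369). IFIT5 and ISG20, an exonuclease, had H3K27ac changes of 0.078 and 0.072 (adjusted p = 0.487 and 0.576). Over the 5 genes the H3K27ac changes ran from -0.26 to 0.078 and the adjusted p from 0.0929 to 0.647. In a window of 50 kb, IFIT2 and IFIT3 fell in both marks, at -0.34 and -0.29 in H3K27ac and -0.30 and -0.34 in H3K9ac, and IFIT5 fell in H3K9ac at -0.27 (adjusted p = 0.0121, 0.0207, 0.0223, 0.0140 and 0.0393).

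Of the genes that act at membranes, IFITM2 fell in both marks and the others did not pass where they were tested. RSAD2 was not tested in H3K27ac or SMAD3. The IFITM proteins hinder fusion of viruses with the cell's membranes and lie in a cluster on chromosome 11 whose windows overlap. IFITM2 (307816 to 309395) had 4.37 and 4.16 kb of H3K27ac with TGF-beta, against 4.99 and 5.06 kb with vehicle (log2 change -0.30 ± 0.0738 SE, adjusted p = 0.0264). H3K9ac there was 4.68 and 4.88 kb with TGF-beta, against 6.82 and 6.39 kb with vehicle (log2 change -0.34 ± 0.0744 SE, adjusted p = 0.0335). In both marks the TGF-beta libraries lay below the vehicle libraries, as at 20.9% (H3K27ac) and 40.9% (H3K9ac) of all genes tested. IFITM1 had 6.46 and 6.09 kb of H3K27ac with TGF-beta, against 6.86 and 6.98 kb with vehicle (log2 change -0.22 ± 0.0741 SE, adjusted p = 0.0739). For H3K9ac the lengths were 6.51 and 6.76 kb with TGF-beta, against 8.68 and 8.23 kb with vehicle (log2 change -0.24 ± 0.0752 SE, adjusted p = 0.106). IFITM3 had 5.63 and 5.38 kb of H3K27ac with TGF-beta, against 5.34 and 5.49 kb with vehicle (log2 change -0.067 ± 0.0729 SE, adjusted p = 0.551). In H3K9ac it had 5.55 and 5.79 kb with TGF-beta, against 7.42 and 7.21 kb with vehicle (log2 change -0.25 ± 0.0764 SE, adjusted p = 0.0941). Before centring, H3K9ac of all 3 was lower in both TGF-beta libraries, as it was for 40.9% of all genes tested. An H3K9ac region called in both vehicle and neither TGF-beta library (chr11:317786-317994) lies in all 3 windows.

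The calls of IFITM2 depended on the setting. In H3K27ac the call was lost without TGF-beta replicate 1, TGF-beta replicate 2 or vehicle replicate 1 (adjusted p = 0.0913, 0.129 and 0.0824), without centring (0.113) and in a window of 50 kb (-0.12, 0.164). In H3K9ac it was lost in 10 of 14 settings, among them without TGF-beta replicate 1 (0.0908), TGF-beta replicate 2 (0.140) or vehicle replicate 2 (0.0668) and in a window of 2.5 kb (-0.024, 0.890). SMAD3 at IFITM1 gave 2.86 and 2.27 kb with TGF-beta, against 1.55 and 2.43 kb with vehicle, and SMAD3 at IFITM3 2.82 and 2.52 kb with TGF-beta, against 1.52 and 2.10 kb with vehicle, with no call. In that 2.5 kb window IFITM1 fell in both marks, at -0.33 in H3K27ac (0.0448) and -0.65 in H3K9ac (0.00206).

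BST2, or tetherin, which holds budding virus on the cell surface, had 1.72 and 0.955 kb of H3K27ac with TGF-beta, against 0.908 and 1.05 kb with vehicle (log2 change 0.19 ± 0.175 SE, adjusted p = 0.470), with TGF-beta replicate 1 the highest. Without TGF-beta replicate 2 the change was 0.48 and passed (adjusted p = 0.0274). H3K9ac at BST2 was called in vehicle replicate 1 alone, at 0.584 kb, and was listed at 0 in the other 3 libraries. SMAD3 gave 0.225 and 0.180 kb with TGF-beta, against 0 and 0.196 kb with vehicle, and a region of 366 bp just upstream (chr19:17405844-17406209) was called in both TGF-beta libraries and neither vehicle library. BST2 was too short to test in SMAD3 and H3K9ac.

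Among 10 other effectors, XAF1 and SP110 rose in H3K27ac, XAF1 rose in H3K9ac, IFI27 and IFI35 rose in SMAD3, and none fell. XAF1, which antagonises an inhibitor of apoptosis (chromosome 17, 6755447 to 6775647), had 4.21 and 4.04 kb of H3K27ac with TGF-beta, against 2.23 and 2.37 kb with vehicle (log2 change 0.64 ± 0.0721 SE, adjusted p = 0.00134). H3K9ac peaks spanned 2.07 and 2.73 kb with TGF-beta, against 1.49 and 1.38 kb with vehicle (log2 change 0.67 ± 0.0896 SE, adjusted p = 0.00453). The TGF-beta libraries were above the vehicle libraries in both marks, as at 40.7% (H3K27ac) and 9.39% (H3K9ac) of all genes tested. SMAD3 gave 1.02 and 0.668 kb with TGF-beta, against 0 and 0 kb with vehicle. With 0 in both vehicle libraries XAF1 had too short a mean to be tested in SMAD3. XAF1 was the 1 gene of the 41 with SMAD3 in the 2 TGF-beta libraries but not with vehicle, beside 402 of all 19970 genes. The H3K27ac call held in every setting and the H3K9ac call in all but no centring (adjusted p = 0.0582), and the window also holds FBXO39.

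IFI27, a mitochondrial protein that is among the most strongly interferon-induced transcripts (chromosome 14, 94105894 to 94116690), had 2.42 and 2.79 kb of SMAD3 with TGF-beta, against 0.204 and 1.03 kb with vehicle (log2 change 1.26 ± 0.252 SE, adjusted p = 0.0126). Vehicle replicate 4 was lowest, and without it the change was 0.79. The marks did not pass, with 0.815 and 1.34 kb of H3K27ac with TGF-beta, against 0.679 and 1.15 kb with vehicle (log2 change 0.07 ± 0.196 SE, adjusted p = 0.829). The H3K9ac length was 1.23 and 1.49 kb with TGF-beta, against 1.23 and 0.971 kb with vehicle (log2 change 0.31 ± 0.0819 SE, adjusted p = 0.0600). Without vehicle replicate 1 that H3K9ac change was 0.37 and passed (adjusted p = 0.0337). A SMAD3 region of 2006 bp near the far end of the gene (chr14:94114701-94116706) was called in both TGF-beta libraries and 1 vehicle library. IFI35, which binds NMI (chromosome 17, 43006784 to 43014456), had 7.97 and 7.34 kb of SMAD3 with TGF-beta, against 2.26 and 4.21 kb with vehicle (log2 change 0.85 ± 0.182 SE, adjusted p = 0.0168). There again vehicle replicate 4 was lowest, and without it the change was 0.57 and did not pass (adjusted p = 0.0833). H3K27ac at IFI35 gave 7.78 and 7.38 kb with TGF-beta, against 5.76 and 6.599 kb with vehicle (log2 change 0.19 ± 0.0787 SE, adjusted p = 0.128). Both TGF-beta libraries lay above there, as at 40.7% of all genes tested. The IFI35 window also holds RPL27 and VAT1.

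Taking the same number of peaks from each SMAD3 library ended both calls, for IFI27 (0.98, adjusted p = 0.0650) and IFI35 (0.61, 0.127). So did a pseudocount of 100 bp (0.0574 and 0.0522), and for IFI35 a score of at least 5 (0.0552). In a window of 50 kb the changes were 0.61 for IFI27 and 0.43 for IFI35.

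SP110, a nuclear body protein (chromosome 2, 230165186 to 230225636), had 3.27 and 2.81 kb of H3K27ac with TGF-beta, against 1.502 and 1.91 kb with vehicle (log2 change 0.60 ± 0.0995 SE, adjusted p = 0.00597). Both TGF-beta libraries lay above, as at 40.7% of all genes tested. The call held in every setting, at 0.30 in a window of 50 kb. H3K9ac at SP110 gave 1.33 and 1.68 kb with TGF-beta, against 2.18 and 1.63 kb with vehicle (log2 change -0.17 ± 0.0979 SE, adjusted p = 0.364). SMAD3 gave 0.516 and 0.532 kb with TGF-beta, against 0.499 and 0.497 kb with vehicle (log2 change -0.28 ± 0.129 SE, adjusted p = 0.178). Of the others, MX1, a dynamin-like GTPase that blocks viral nucleocapsids, had 4.14 and 4.47 kb of H3K27ac with TGF-beta, against 4.36 and 4.998 kb with vehicle. Its H3K9ac length was 3.61 and 3.57 kb with TGF-beta, against 4.07 and 3.65 kb with vehicle, and in SMAD3 2.81 and 3.28 kb with TGF-beta, against 1.64 and 2.62 kb with vehicle. IFI6, which stabilises the endoplasmic reticulum against flavivirus replication, had 2.85 and 3.11 kb of H3K27ac with TGF-beta, against 2.81 and 2.90 kb with vehicle. H3K9ac there was 2.01 and 2.44 kb with TGF-beta, against 2.19 and 1.91 kb with vehicle, and in SMAD3 2.39 and 2.06 kb with TGF-beta, against 1.28 and 2.18 kb with vehicle. Neither passed, nor did MX2, TRIM22, IFI44 and IFI44L where tested, whose H3K27ac changes were -0.25, -0.13, -0.11 and -0.12 (adjusted p = 0.118, 0.367, 0.619 and 0.364). TRIM22, IFI44 and IFI44L were too short to test in SMAD3. In H3K9ac IFI44 passed as lower without vehicle replicate 2 (-0.40, adjusted p = 0.0428).

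**Figure D3:**
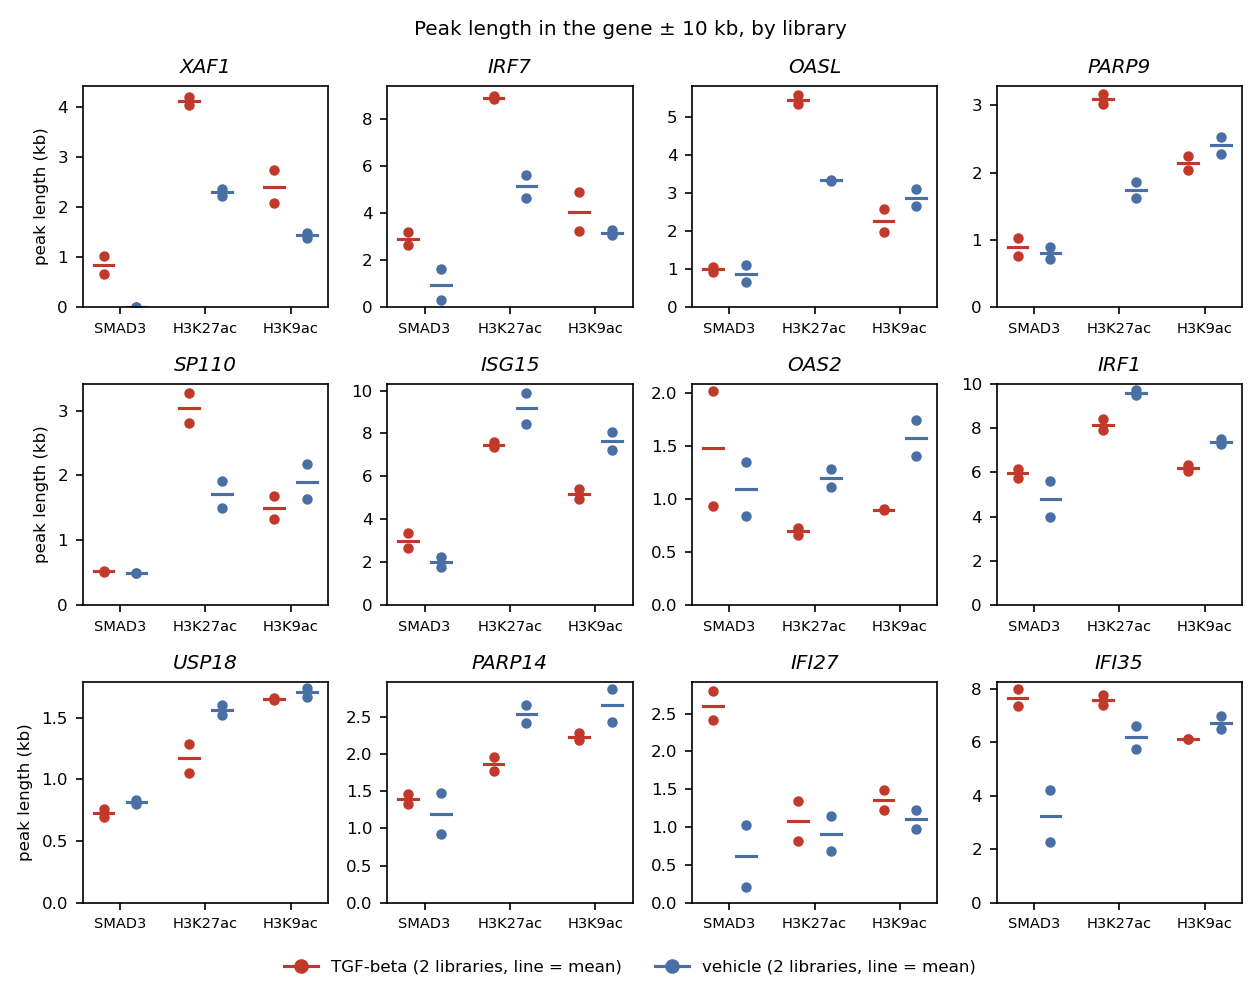
Peak length in kb in each library for 12 interferon-stimulated genes that passed in at least 1 target, TGF-beta in red left of vehicle in blue, with lines at the means of 2 libraries. OAS3 and IFITM2, which also passed, are not shown. The H3K27ac points of XAF1, IRF7, OASL, PARP9 and SP110 are higher with TGF-beta, those of ISG15, OAS2, IRF1, USP18 and PARP14 are lower, and IFI27 and IFI35 are higher in SMAD3.

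The ISG15 and ADP-ribose genes moved apart: PARP9 rose and ISG15, USP18 and PARP14 fell in H3K27ac, while ISG15 also fell in H3K9ac. ISG15 encodes the ubiquitin-like modifier itself (chromosome 1, 1013497 to 1014540). It had 7.38 and 7.59 kb of H3K27ac with TGF-beta, against 8.44 and 9.91 kb with vehicle (log2 change -0.36 ± 0.0851 SE, adjusted p = 0.0229). For H3K9ac the lengths were 4.95 and 5.41 kb with TGF-beta, against 8.08 and 7.23 kb with vehicle (log2 change -0.43 ± 0.0728 SE, adjusted p = 0.0123). In both marks the TGF-beta libraries were below the vehicle libraries, as at 20.9% (H3K27ac) and 40.9% (H3K9ac) of all genes tested. SMAD3 gave 2.66 and 3.35 kb with TGF-beta, against 1.78 and 2.26 kb with vehicle (log2 change 0.15 ± 0.133 SE, adjusted p = 0.450). The ISG15 window of 10 kb reaches into AGRN, and in a window of 2.5 kb the changes were -0.22 in H3K27ac (adjusted p = 0.265) and -0.067 in H3K9ac (0.684). In H3K27ac the call was also lost without TGF-beta replicate 1 (0.106), TGF-beta replicate 2 (0.0624) or vehicle replicate 2 (0.0790), and without centring (0.0998).

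USP18, the protease that removes ISG15 and dampens interferon receptor signalling (chromosome 22, 18150170 to 18177397), had 1.29 and 1.05 kb of H3K27ac with TGF-beta, against 1.60 and 1.52 kb with vehicle (log2 change -0.39 ± 0.0924 SE, adjusted p = 0.0221). It had 1.64 and 1.66 kb of H3K9ac with TGF-beta, against 1.67 and 1.74 kb with vehicle (log2 change 0.055 ± 0.0878 SE, adjusted p = 0.766). The SMAD3 length was 0.691 and 0.760 kb with TGF-beta, against 0.801 and 0.832 kb with vehicle (log2 change -0.42 ± 0.126 SE, adjusted p = 0.0608). USP18 was the 1 gene of 33 tested with SMAD3 below vehicle in both TGF-beta libraries, beside 1.8% of all genes tested. The H3K27ac call was lost without TGF-beta replicate 2 (adjusted p = 0.120) or vehicle replicate 1 (0.0773) and without centring (0.0644). No other protein-coding gene lies in the USP18 window. PARP14, an ADP-ribosyltransferase (chromosome 3, 122680839 to 122730840), had 1.77 and 1.95 kb of H3K27ac with TGF-beta, against 2.66 and 2.42 kb with vehicle (log2 change -0.45 ± 0.0976 SE, adjusted p = 0.0166). That call was lost without TGF-beta replicate 1 (0.0765) or vehicle replicate 1 (0.0562). H3K9ac at PARP14 gave 2.28 and 2.18 kb with TGF-beta, against 2.87 and 2.43 kb with vehicle, and in SMAD3 1.32 and 1.46 kb with TGF-beta, against 0.923 and 1.47 kb with vehicle, and neither passed.

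PARP9, which acts with the ubiquitin ligase DTX3L to enhance interferon signalling (chromosome 3, 122527924 to 122564784), had 3.16 and 3.02 kb of H3K27ac with TGF-beta, against 1.63 and 1.86 kb with vehicle (log2 change 0.59 ± 0.0755 SE, adjusted p = 0.00209), and the call held in every setting. H3K9ac gave 2.044 and 2.24 kb with TGF-beta, against 2.54 and 2.28 kb with vehicle (log2 change -0.046 ± 0.0722 SE, adjusted p = 0.760). SMAD3 gave 0.758 and 1.03 kb with TGF-beta, against 0.722 and 0.894 kb with vehicle (log2 change -0.23 ± 0.132 SE, adjusted p = 0.264). DTX3L, which starts back to back with PARP9, had 1.92 and 1.85 kb of H3K27ac with TGF-beta, against 1.63 and 1.86 kb with vehicle (log2 change 0.0013 ± 0.0753 SE, adjusted p = 0.994). The 2 genes shared the region over their start sites, and the added H3K27ac lay some 30.3 and 31.2 kb away inside PARP9. HERC6 did not pass in any target (H3K27ac log2 change -0.17 ± 0.0728 SE, adjusted p = 0.143), and HERC5 was tested in H3K9ac only (log2 change -0.078 ± 0.0758 SE, adjusted p = 0.597).

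Antigen processing was represented by TAP1, the peptide transporter of the endoplasmic reticulum, and PSMB9, an immunoproteasome subunit, which share a start region on chromosome 6. TAP1 had 4.96 and 5.25 kb of H3K27ac with TGF-beta, against 5.42 and 5.79 kb with vehicle. In H3K9ac it had 5.36 and 5.67 kb with TGF-beta, against 6.04 and 5.75 kb with vehicle, and in SMAD3 3.71 and 3.67 kb with TGF-beta, against 2.85 and 3.27 kb with vehicle. PSMB9 had 3.05 and 3.37 kb of H3K27ac with TGF-beta, against 3.42 and 3.65 kb with vehicle. H3K9ac peaks spanned 3.56 and 3.57 kb with TGF-beta, against 3.77 and 3.77 kb with vehicle, and in SMAD3 2.35 and 2.39 kb with TGF-beta, against 1.96 and 2.35 kb with vehicle. None of the 6 changes passed: they were -0.21 and -0.21 in H3K27ac (adjusted p = 0.0943 and 0.120), 0.0046 and 0.02 in H3K9ac (0.981 and 0.915) and -0.085 and -0.20 in SMAD3 (0.650 and 0.277). In a window of 50 kb both genes passed as lower in H3K27ac with the same value, -0.24 (adjusted p = 0.0275). Their windows share peaks, so these are not 2 separate changes.

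Whether the marks changed differently was tested as the H3K27ac change minus the H3K9ac change. Of 38 genes tested, 3 had a positive difference past the threshold and 0 a negative one, beside 5.41% and 1.97% of 13597 genes. They were SP110 (log2 change 0.76 ± 0.148 SE, adjusted p = 0.0138), OASL (log2 change 0.74 ± 0.146 SE, adjusted p = 0.0152) and PARP9 (log2 change 0.63 ± 0.0978 SE, adjusted p = 0.00501). In all 3, H3K27ac rose while H3K9ac gave a change below 0 that did not pass. The difference of OASL was lost without H3K27ac TGF-beta replicate 1 (adjusted p = 0.05003) or 2 (0.05032) or H3K9ac TGF-beta replicate 1 (0.0692), and that of SP110 without H3K27ac or H3K9ac TGF-beta replicate 1 (0.0526 and 0.0661), with a score of at least 5 (0.48, 0.0513) and in a window of 50 kb (0.46, 0.0747). Of the 38 genes, 4 passed in both marks: XAF1 rose, and OAS2, ISG15 and IFITM2 fell. Over the 13597 genes tested in both marks, 921 (6.77%) passed in both, 469 of them higher in both, 442 lower in both and 10 in opposite directions. Another 8 of the 38 passed in H3K27ac alone, 0 in H3K9ac alone and 26 in neither, beside 18.5%, 2.53% and 72.2% of all genes. For USP18 the difference was -0.46 (adjusted p = 0.0681).

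**Figure D4:**
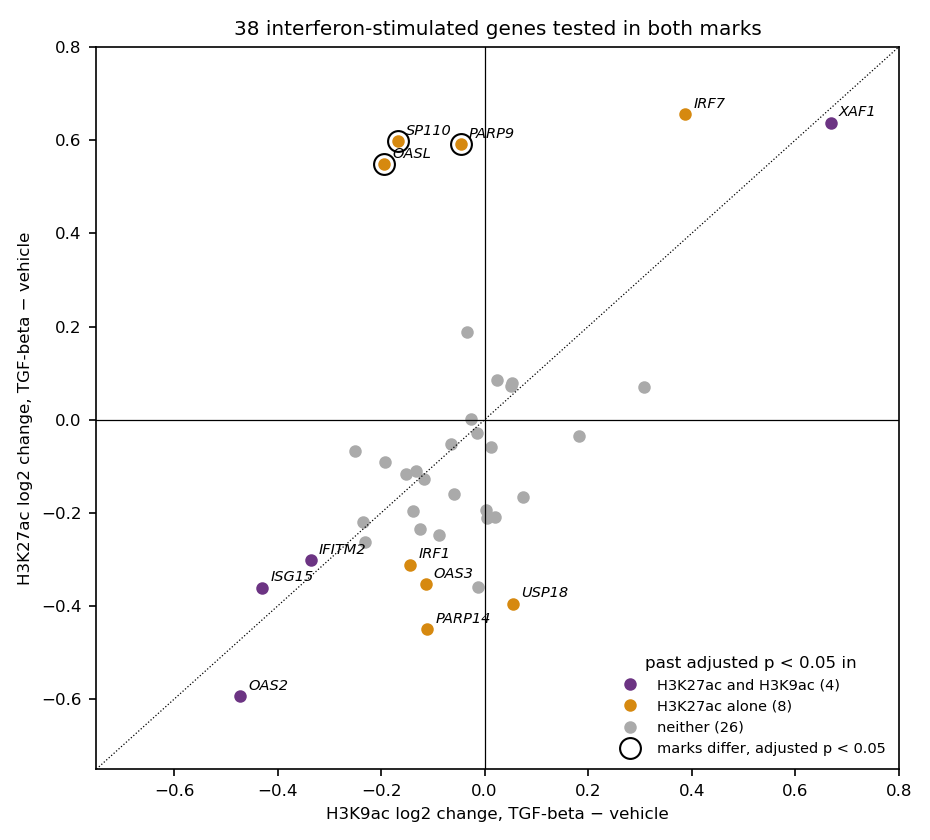
H3K27ac change against H3K9ac change (log2, TGF-beta minus vehicle) for the 38 interferon-stimulated genes tested in both marks, coloured by the marks in which each passed; the dotted line marks equal change. SP110, OASL and PARP9, ringed, lie high above the line with H3K9ac changes of -0.17, -0.20 and -0.046, while XAF1, OAS2, ISG15 and IFITM2 lie near it.

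Peaks of the 4 libraries of each target were merged into regions, called gained when present in both TGF-beta and neither vehicle library and lost in the reverse case. Windows of the 41 genes held 193 H3K27ac regions, of which 16 were gained, 3 lost and 97 present in all 4 libraries. The gained share was 8.29%, against 11.97% across the genome, the lost share 1.55%, against 4.72%, and the share in all 4 libraries 50.3%, against 41.9%. For H3K9ac, 2 of 151 regions were gained and 9 lost, at 1.32% and 5.96%, against 5.15% and 6.15% genome-wide. For SMAD3, 13 of 140 were gained and 2 lost, at 9.29% and 1.43%, against 13.7% and 0.669%. Of the 13 gained SMAD3 regions, 12 overlapped an H3K27ac peak and 10 an H3K9ac peak in some library (92.3% and 76.9%, against 71.9% and 71.9% of gained SMAD3 regions genome-wide). For SMAD3 regions present in all 4 libraries the H3K27ac share was 89.3%, against 96.4% genome-wide. The genome-wide regions were not limited to the surroundings of genes, so the sets compared are unlike. Regions are not replicates, so these shares are descriptions.

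At XAF1 the gained regions of SMAD3 and H3K27ac lay close together. SMAD3 was gained 3.65 and 3.07 kb upstream of the start site (chr17:6752095-6752701 and chr17:6752742-6753207), inside an H3K27ac region of 3240 bp called in all 4 libraries (chr17:6751112-6754351). H3K27ac was gained nearer to that start, at 1.28 and 0.366 kb before it (chr17:6754526-6754998 and chr17:6755505-6755855). No SMAD3 peak of either treatment overlapped the XAF1 promoter of 300 bases.

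At PARP9 and SP110, H3K27ac was gained with no gained SMAD3 region in the window. The regions in PARP9 were chr3:122533345-122533908 and chr3:122534161-122534870. In SP110 they were chr2:230222416-230222913 and chr2:230223163-230223358, within 3 kb of the start inside the gene, and chr2:230230422-230230578, 4.86 kb upstream. SMAD3 in SP110 was a single region called in all 4 libraries. At IFI35, SMAD3 was gained 5.56 and 4.997 kb upstream (chr17:43000963-43001479 and chr17:43001531-43002044), and H3K27ac 2.40 kb upstream (chr17:43004227-43004550). IRF7 gained SMAD3 at chr11:613191-613559 and chr11:613712-613977 within the gene and H3K27ac at chr11:623524-624010 outside it, and lost H3K27ac at chr11:613441-613621.

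Among the lost regions, those at ISG15 lay far from its start site: H3K9ac was called in both vehicle and neither TGF-beta library 8.44 and 7.77 kb upstream (chr1:1004727-1005391 and chr1:1005528-1005936) and 9.39 kb downstream (chr1:1022706-1023065). The regions around the ISG15 start site were called in all libraries of both marks. SMAD3 was lost between OAS3 and OAS2 (chr12:112978154-112978351) and 1.23 kb into STAT2 (chr12:56358781-56358979).

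**Figure D5:**
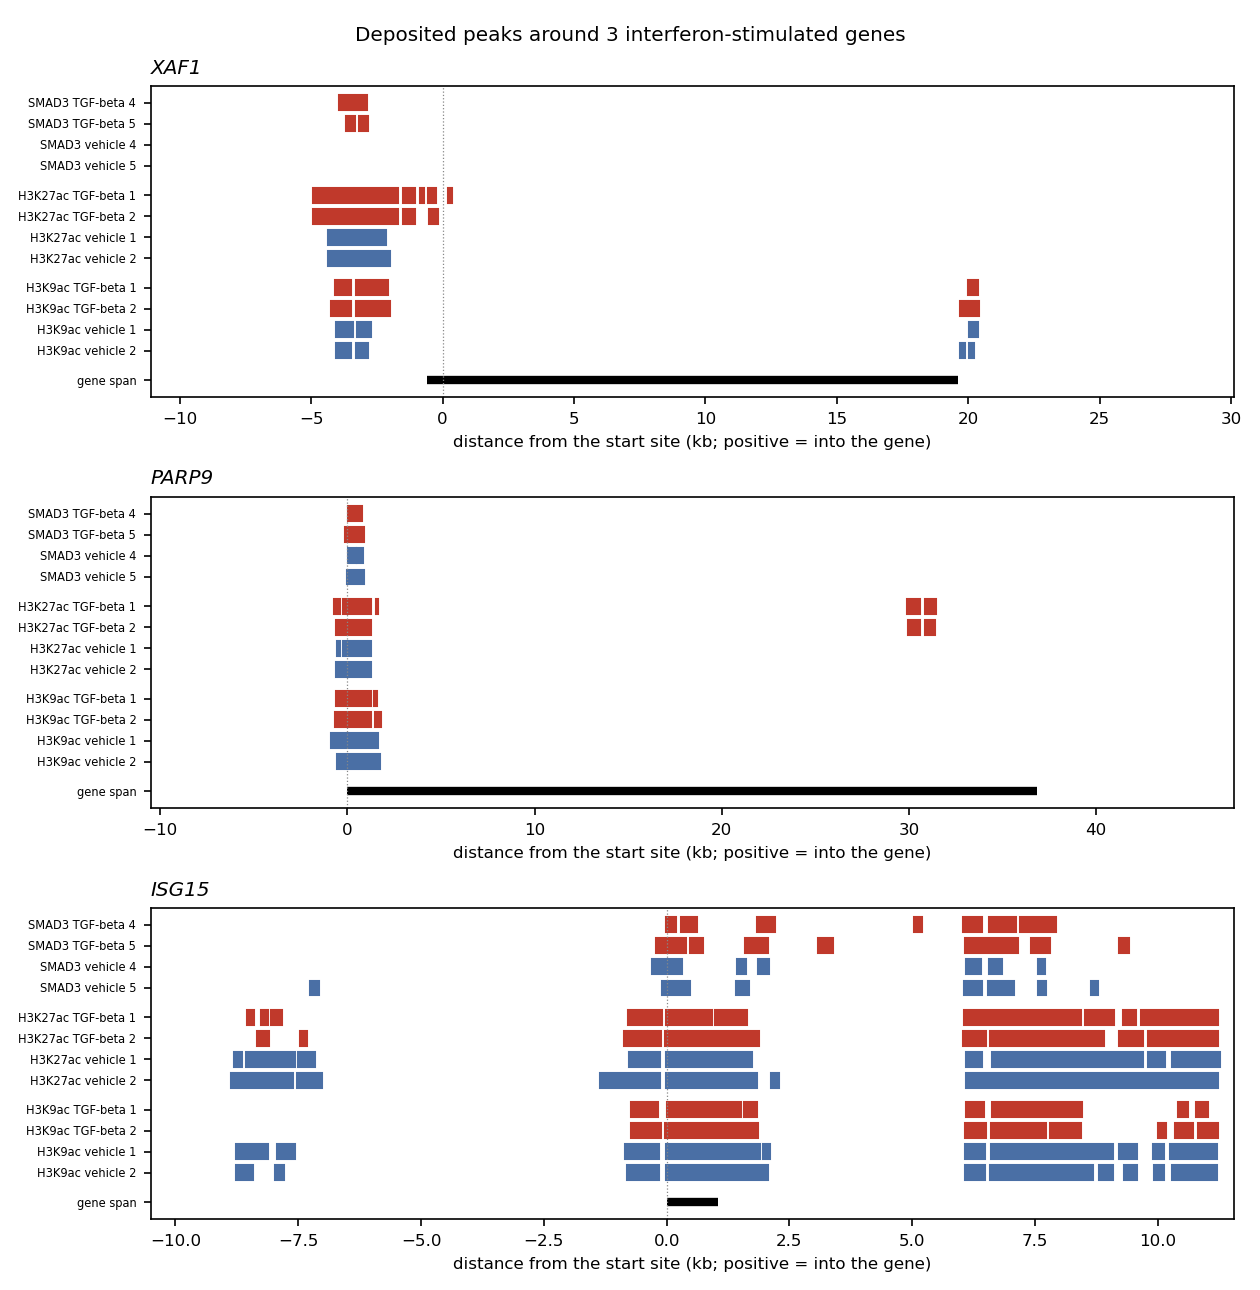
Peaks of the 12 libraries around XAF1, PARP9 and ISG15 as distance from the start site in kb, TGF-beta in red above vehicle in blue for each target, with the gene span in black. SMAD3 appears upstream of XAF1 with TGF-beta alone, H3K27ac appears 30.3 and 31.2 kb into PARP9 with TGF-beta alone, and H3K9ac about 8 kb upstream of ISG15 with vehicle alone.

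Of 84 further genes of the interferon pathway, 9 rose and 12 fell of 69 tested in H3K27ac (30.4%, beside 26.4% of all genes called in either direction). In H3K9ac 2 rose and 6 fell of 75 (10.7%, beside 9.47%), and in SMAD3 8 rose and 1 fell of 61 (14.8%, beside 12.8%). Among 12 ligands and receptors, of which 7 were tested in H3K27ac, IFNLR1 (0.60), the receptor subunit for type III interferons, IFNGR2 (0.48) and IFNK (0.39) rose, and IFNGR1 (-0.45) and IFNAR1 (-0.30) fell. Of 9 kinases and factors, JAK1 (0.42) and IRF8 (0.47) rose and STAT3 fell in H3K27ac (-0.30), STAT3 also fell in H3K9ac (-0.77), and IRF3 (0.86) and TYK2 (0.66) rose in SMAD3. The inhibitors SOCS1 (-0.49), PIAS1 (-0.34) and PTPN6 (-0.32) fell in H3K27ac, 3 of 8 tested, and none rose. Of all genes tested 11.7% fell and 14.8% rose, and the counts in these small lists were not tested against such shares.

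Among 11 sensors and adaptors, TICAM1, an adaptor of TLR3, rose (0.47) and STING1, which relays sensing of cytosolic DNA, fell (-0.41) in H3K27ac, IKBKE fell in H3K9ac (-0.58), and MAVS (0.81), the RIG-I adaptor, and IKBKE (0.63) rose in SMAD3. Of 13 antigen presentation genes, HLA-F rose in H3K27ac (0.56) and NLRC5 fell in H3K9ac (-0.31). Among the other 31 effectors, PML, the scaffold of nuclear bodies, had the largest SMAD3 change, with 6.96 ± 0.381 kb after TGF-beta and 1.23 ± 0.514 kb with vehicle (mean ± SD, n = 2 libraries each; log2 change 1.82 ± 0.156 SE, adjusted p = 0.000232 in limma), and it rose in H3K9ac (0.36). EPSTI1 fell in SMAD3 (-0.75) and H3K9ac (-0.42). In H3K27ac 2 of the 25 tested rose, SAMD9 (0.50) and TRIM25 (0.26), and 5 fell, among them APOL1 (-0.72), SAMHD1 (-0.57) and UBE2L6 (-0.52), the conjugating enzyme for ISG15.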

How the data were processed

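Peak files of 12 ChIP-seq libraries (human H69 cells, hg38) were used; each lists the peaks of 1 library, so replicates were not pooled. Per the submitters' processing notes the tools included BWA, Picard, MACS2 and bedtools, with no version or role given. Per the file headers the peaks came from MACS2, and the deposited score of each peak is the authors' value in the range of a -log10 p or q value; whether p or q was meant is not given there. Inputs were not analysed here, and sequencing depth is not given.

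Peak positions deposited by the authors were summed as bases covered in each of 19970 protein-coding genes (RefSeq, GRCh38.p14) with 10 kb on each side. The log2(length + 500 bp) values of genes averaging at least 500 bp were centred on the median of genes covered in all 4 libraries of a target and tested with limma 3.58.1 (R 4.3.3, 2 libraries against 2 per target) and Benjamini-Hochberg adjustment over all genes tested. The treatment-by-mark difference was fitted over the 8 libraries of both marks. The scripts (Python 3.11.15) were tested on simulated data.

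The 41 genes and all lists were chosen with earlier results of these data known. Full values were given for genes past the threshold and for listed members of each role. Alternatives were the pseudocount, filter, centring, number and score of peaks, window, limma options, replicate block and each library left out. Replicate numbers were not taken to pair libraries, since the labels do not say that they do. Deviations of same-numbered libraries correlated at -0.069 (SMAD3), -0.016 (H3K27ac) and -0.136 (H3K9ac). Exon and intron positions were not used here.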

Additional observations from a re-analysis of the deposited data

Results flagged for a closer look

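The response to TGF-beta differed between the acetylation marks at 3 interferon-stimulated genes, by a test of the H3K27ac change minus the H3K9ac change (limma, Benjamini-Hochberg adjustment over 13597 genes). At SP110, a nuclear body protein, the difference was 0.76 on the log2 scale (adjusted p = 0.0138). At OASL, which enhances RIG-I signalling, it was 0.74 (adjusted p = 0.0152), and at PARP9, the partner of DTX3L, it was 0.63 (adjusted p = 0.00501). In each gene both TGF-beta libraries were above both vehicle libraries in H3K27ac, as at 40.7% of all genes tested. In H3K9ac both were below at OASL and PARP9, as at 40.9% of all genes tested, and the groups overlapped at SP110. The share of all genes with a positive difference past the threshold was 5.41%, and the count of 3 of 38 was not tested against it. PARP9 held under all 18 alternatives tried, while SP110 and OASL did not.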

How the results depend on the processing

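Of 306 alternative values for interferon-stimulated genes that passed, 251 passed again with the same sign, 55 did not and 0 reversed with a call. A window of 50 kb moved the counts over all genes to 3019 in SMAD3 (1603 at 10 kb), 6017 in H3K27ac (3696), 2317 in H3K9ac (1382) and 1657 for the difference between marks (1004). Among the interferon-stimulated genes it gave 5 higher and 1 lower in SMAD3 and 7 higher and 13 lower in H3K27ac. In H3K9ac it gave 2 higher and 4 lower, and for the difference 4 higher and 3 lower. Neighbouring genes share peaks in that window, so these are not counts of separate loci. The window of 50 kb also turned the direction of IFIH1 in H3K27ac (0.89), in H3K9ac (0.45) and in their difference (0.45), and of IFIT5 in H3K9ac (-0.27). The cause was not tested. With equal numbers of peaks taken from every library SMAD3 called 712 genes, and 0 interferon-stimulated genes were higher. A pseudocount of 100 bp also left 0 higher in SMAD3. One of 2000 bp gave 1 higher and 5 lower in H3K9ac, as did limma's trend and robust options. Without centring H3K27ac had 5 higher and 2 lower, and H3K9ac called 561 genes with 0 interferon-stimulated genes higher and 2 lower. Counting a region as called only where peaks cover at least 50% of it left 37 SMAD3 regions constant (56 otherwise) and gave 8 lost H3K27ac regions, and a score of at least 5 gave 1 (3 otherwise).

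Leaving out each library in turn gave 789 to 1812 calls over all genes in SMAD3, 2366 to 3231 in H3K27ac, 903 to 1530 in H3K9ac and 508 to 967 for the difference. The low value in SMAD3 came without vehicle replicate 4. Among interferon-stimulated genes the counts were 2 to 4 higher and 0 to 1 lower in SMAD3, 5 to 6 and 2 to 5 in H3K27ac, 1 to 2 and 1 to 3 in H3K9ac, and 1 to 3 higher and 0 to 0 lower for the difference. With 1 library left in a group, that library is assumed to vary like the others.

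With the replicate number as a block there were 1669 calls over all genes in SMAD3 (3 higher and 0 lower among the interferon-stimulated genes), 3677 in H3K27ac (5 and 7), 1671 in H3K9ac (2 and 3) and 929 for the difference. Deviations of same-numbered libraries did not correlate positively. With 2 libraries per group this cannot show whether the numbers pair libraries, and the labels do not say. A crossed replicate block in H3K9ac, chosen after seeing the data, gave 1360 calls (1 and 3). Read depth is unknown, so a peak missing from a library may be one below the caller's threshold.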
